A study of Mus musculus with 2 samples.

Results

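Among GFP-sorted cells of the newborn mouse pituitary, a small set of collagen-expressing cells carried Apod, Mfap5 and Tgfbi RNA rather than Tcf21 and Inmt RNA. A cell entered the set when its barcode held at least 1000 genes and at most 10% mitochondrial UMIs, at least 5 UMIs of Col1a1, Col1a2 and Col3a1 together, at least 2 UMIs of Mfap5, Apod and Tgfbi together, more of these than of Tcf21 and Inmt together, and at most 1 Epcam UMI. A UMI, or unique molecular identifier, counts 1 captured RNA molecule. The rule kept 381 cells, 225 of them male and 156 female, out of 16365 barcodes of which 13613 passed the gene and mitochondrial limits. They were thus chosen by their own UMI counts of the collagen genes, Mfap5, Apod, Tgfbi, Tcf21, Inmt and Epcam, and are called Apod and Mfap5 cells here. They were read against 365 male and 159 female collagen cells with at least 2 UMIs of Tcf21 and Inmt that Mfap5, Apod and Tgfbi did not exceed, called Tcf21/Inmt cells.

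The study sorted GFP-positive cells from Sox9iresGFP/+ pituitaries at postnatal day 3, a genotype in which GFP is made from the Sox9 locus. Both libraries carried this allele and no treatment, so sex was the only labelled difference. Cells from 3 male pituitaries formed 1 library and cells from 3 female pituitaries the other, and each was run on the 10x Chromium 3′ platform. With 1 library per sex no test between the sexes was possible, and because measured RNA chose the cells, every contrast with the Tcf21/Inmt cells is a description with no test.

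Fibroblasts make the collagen-rich matrix around organs and vessels. Those of a vessel's outer sheath, the adventitia, and those of the meninges, the membranes that wrap the brain, form layers with their own transcription factors and secreted proteins. Mfap5 encodes a microfibril-associated glycoprotein of elastic fibres, Apod a secreted lipid carrier, and Tgfbi a matrix protein induced by TGF-beta. Tcf21 encodes a mesenchymal transcription factor and Inmt an enzyme that methylates indoles. Pituitary mesenchyme surrounds an epithelial gland whose stem cells use SOX2 and SOX9, and Epcam and Pitx1 mark that epithelium.

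The Apod and Mfap5 cells made up 2.81% (95% interval 2.46 to 3.20) of the passing male barcodes and 2.78% (2.37 to 3.25) of the passing female barcodes. The female share over the male share was 0.991. The lower female limit over the upper male one, and the reverse pairing, gave 0.741 to 1.32, not an exact interval. Of the Apod and Mfap5 cells and the Tcf21/Inmt cells together, the former were 38.1% of 590 male cells (34.2 to 42.2) and 49.5% of 315 female cells (43.9 to 55.2). Apart from the range of the share ratio, intervals are exact, Poisson for levels and binomial for shares and level ratios. All cover counting error only. The male cells held 1736 to 36635 UMIs (median 8767) and the female cells 3573 to 31412 (median 8921), close to the medians of 8012 and 7294 UMIs in the Tcf21/Inmt cells. A doublet score marked 1 male and 1 female member. The libraries shared 19 barcodes, 0 of them in these cells.

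The members formed a range and not a separate island. In the male library 41 members were only 1 or 2 UMIs above Tcf21 and Inmt, and 43 cells outside were equal or 1 or 2 UMIs below. In the female library these were 13 members and 34 cells outside. At the lower limit, 9 male members and 1 female member held a sum of exactly 2, and 8 male cells and 1 female cell that otherwise met the rule held a sum of 1. At the other end, 107 male and 81 female members had at least 4 times as many UMIs of Mfap5, Apod and Tgfbi as of Tcf21 and Inmt, and 35 male and 8 female members had no Tcf21 or Inmt UMI. The Epcam limit left out 63 male and 12 female barcodes that met the rest of the rule.

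**Figure D1:**
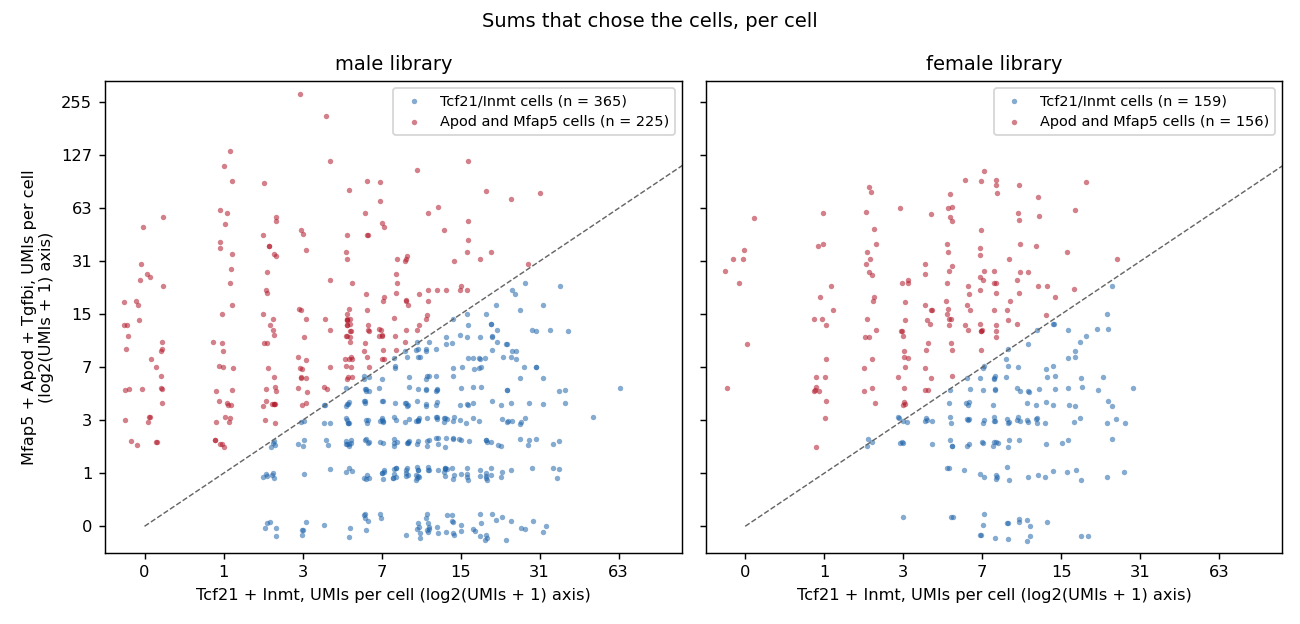
Each point is 1 cell, with the sum of Mfap5, Apod and Tgfbi UMIs against the sum of Tcf21 and Inmt UMIs, both as log2 of UMIs plus 1, for the male and female libraries. Colours mark the Apod and Mfap5 cells and the Tcf21/Inmt cells and the dashed line marks equal sums, around which the cells lie without a gap.

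The 3 genes that chose the cells varied widely among them. Apod ranged up to 221 UMIs in a male cell (median 5) and up to 90 in a female cell (median 7). Mfap5 ranged up to 67 UMIs in males (median 1) and 45 in females (median 2.5). Tgfbi was more even, with at most 16 and 17 UMIs and medians of 3 and 4. All 3 genes were seen in 90 of 225 male members (40.0%, 33.5 to 46.7) and 86 of 156 female members (55.1%, 47.0 to 63.1). Apod with Tgfbi but no Mfap5 was the next combination, in 34.2% of the male and 30.8% of the female members. Mfap5 alone was seen in 6 male and 0 female members, and Apod without Mfap5 was seen more often than Mfap5 without Apod in both libraries.

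Levels below are CPM, a gene's UMIs per 1000000 UMIs of the summed cells of a library, the male value first. Apod (chr16:31296192-31314808, minus strand, mm10) stood at 1381 CPM (1332 to 1431) and 1599 CPM (1536 to 1665) in members, against 204 and 208 CPM in the Tcf21/Inmt cells. Mfap5 (chr6:122505845-122529290, plus strand) stood at 706 and 621 CPM against 59.3 and 101 CPM. Tgfbi (chr13:56609523-56639562, plus strand) stood at 370 and 535 CPM against 85.8 and 131 CPM. These differences follow from the rule. They were not all or none, since after each cell was thinned to 3000 UMIs, Apod was still found in 40.1% and 41.1% of the Tcf21/Inmt cells, against 73.8% and 83.3% of the members. Before thinning the members had 86.7% and 91.7%. In Epcam cells, the epithelial majority with at least 2 Epcam UMIs and at most 1 collagen UMI, Apod was found in 0.320% of 6254 male and 0.0197% of 5072 female cells, with median depths of 11649 and 9922.5 UMIs. Thinning left out 11 male and 0 female members, 6 and 1 Tcf21/Inmt cells, and 524 and 24 Epcam cells.

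The label of these cells rests on 6 markers, of which Itih5, Lum and Dcn were not part of the rule. Itih5, a hyaluronan-binding inhibitor heavy chain, was at 1731 and 1633 CPM in members and 1213 and 1287 CPM in the Tcf21/Inmt cells, a ratio of 1.43 (1.37 to 1.49) and 1.27 (1.19 to 1.35). Lum, a small proteoglycan of collagen fibrils, was at 285 and 305 CPM against 149 and 165 CPM, a ratio of 1.91 (1.70 to 2.15) and 1.85 (1.57 to 2.19). Dcn, a second such proteoglycan, was at 5869 and 6429 CPM against 3831 and 5178 CPM, and was found in 97.7% and 99.4% of thinned members and 99.4% and 99.4% of thinned Tcf21/Inmt cells. These 3 genes thus marked both kinds of collagen cell and were higher, by less than 2-fold, in the Apod and Mfap5 cells. The members carried fibroblast genes throughout, and Itih5, Lum and Dcn by themselves did not set them apart from the Tcf21/Inmt cells.

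**Figure D2:**
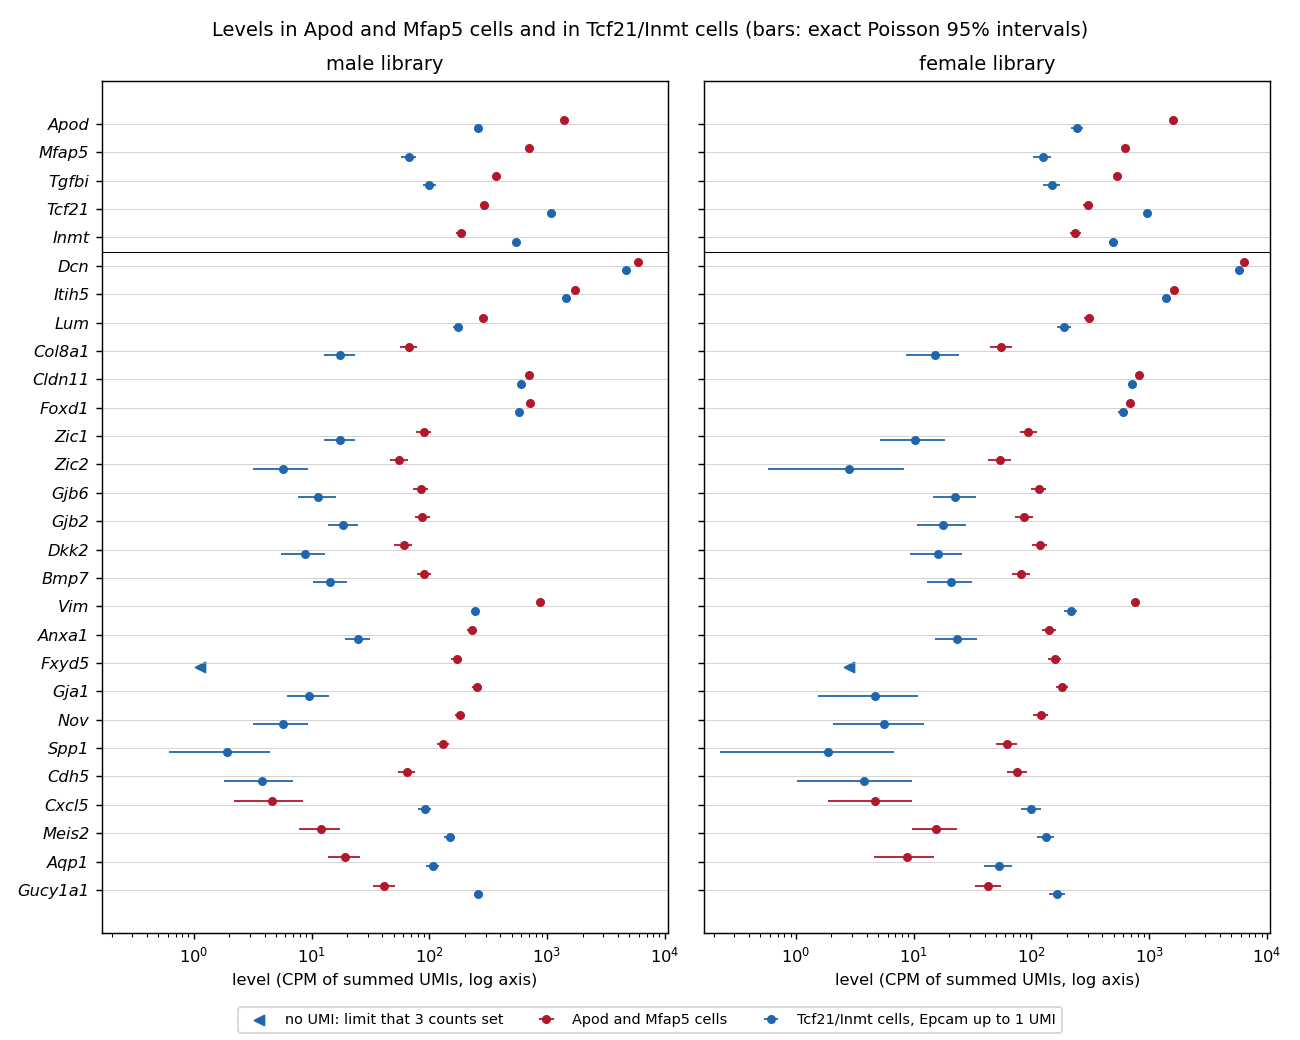
Level in CPM (log axis) of 28 genes in the Apod and Mfap5 cells (red) and in the Tcf21/Inmt cells with at most 1 Epcam UMI (blue), for each library, with exact 95% Poisson intervals and triangles at the upper limit where no UMI was seen. Genes of the rule stand above the line. Fxyd5, Nov and Cdh5 were high in members and near 0 in the comparison cells, Cxcl5 and Meis2 the reverse, and Dcn and Itih5 high in both.

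The Tcf21/Inmt cells had no Epcam limit, and 57 male and 15 female ones held 2 or more Epcam UMIs, at median depths of 18638 and 17793 UMIs. Each contrast was therefore repeated with at most 1 Epcam UMI on both sides, which left 308 male and 144 female comparison cells, a choice made after the data were seen. A gene was considered when it reached 50 CPM in 1 of the 2 kinds of cell in each library and 20 UMIs in all, and was counted as past 2-fold when the ratio, with 5 CPM added to each side, exceeded 2 the same way in both libraries. Of 3219 genes considered, 57 were higher in the Apod and Mfap5 cells (1.77%) and 51 were lower (1.58%). With the Epcam limit, 50 of 3194 genes were higher (1.57%) and 34 lower (1.06%). Of these, 45 of the higher genes and 21 of the lower genes were in both counts. The genes lost among the lower ones were largely epithelial. Msx1, a homeobox gene, was at 5.95 and 2.01 CPM in members and 108 and 77.2 CPM in all Tcf21/Inmt cells, but at 4.18 and 2.83 CPM with the Epcam limit. Sox2, the stem cell factor, went from 77.7 and 79.5 CPM to 4.94 and 0 CPM in the comparison cells, beside 5.95 and 1.34 CPM in members. The median log2 ratio of all genes considered was -0.02 and -0.01.

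Fxyd5, Nov, Spp1, Cdh5 and Gja1 were among the genes outside the rule with the largest ratios in favour of the members. Fxyd5, a membrane protein that modulates the sodium pump and cell adhesion, gave 373 male and 235 female UMIs in members (171 and 157 CPM) and 0 in the Tcf21/Inmt cells of both libraries. Against the 3 counts that a 0 allows over each group, it was at least 211-fold higher in males and at least 70.0-fold higher in females. Nov, a matricellular protein of the CCN family, was at 182 CPM (164 to 201) and 121 CPM (104 to 140) against 4.32 and 5.999 CPM, 42.1-fold (25.6 to 74.4) and 20.1-fold (9.99 to 47.3) higher. Spp1, the secreted phosphoprotein osteopontin, was at 132 and 61.6 CPM against 1.62 and 3.00 CPM. Cdh5, best known as the cadherin of endothelial junctions, was at 64.6 and 75.7 CPM against 2.70 and 3.00 CPM, 23.9-fold (12.6 to 51.0) and 25.2-fold (9.59 to 94.2) higher. Gja1, the gap junction protein connexin 43, was at 253 and 182 CPM against 12.4 and 16.5 CPM, and the Epcam cells had 30.9 and 36.9 CPM. All of these stood past 2-fold with the Epcam limit too. All were under 50 CPM in the Tcf21/Inmt cells and passed the level limit through the members alone.

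Other endothelial markers were uneven in the members. Emcn, an endothelial sialomucin, stood at 211 and 209 CPM in members and 155 and 178 CPM in the Tcf21/Inmt cells. Pecam1 gave 2 UMIs over the male members and 2 over the female members, and Kdr stood at 3.21 and 4.02 CPM. Of 14 endothelial markers, 3 male and 4 female were at 0 and 9 in each library were under 5 CPM, while their summed level was 861 and 776 CPM against 441 and 398 CPM in the Tcf21/Inmt cells and 11.3 and 9.83 CPM in the Epcam cells. Ramp2, a co-receptor of calcitonin-family peptides that is on that list, accounted for 551 and 461 CPM of the sum and was past 2-fold without the Epcam limit but not with it. The part of endothelial RNA in the Cdh5 level was not tested.

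These genes were found in a minority of members. After thinning to 3000 UMIs, Fxyd5 was found in 14.0% of 214 male members (9.66 to 19.4) and 10.3% of 156 female members (5.98 to 16.1), against 0.144% and 0.237% of the Epcam cells. Nov was found in 15.9% and 13.5% of members against 1.39% and 1.90% of the Tcf21/Inmt cells. Gja1 was found in 22.4% and 19.2% against 3.06% and 3.16%, and in 7.53% and 10.0% of the Epcam cells. One cell held 16.6% of the Fxyd5 UMIs in each library, so no single cell made up the level. Across thinned members, log UMIs of Fxyd5 and Nov had a correlation of 0.65 in 214 male and 0.61 in 156 female cells, and those of Gja1 and Nov 0.66 and 0.60. These cells share a library and a rule, and the correlations are given as a description.

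Of the genes known from meningeal fibroblasts, Zic1, Crabp2, Fxyd5, Dkk2, Gjb2 and Gjb6 were past 2-fold higher in the Apod and Mfap5 cells. Of 33 listed genes, 13 were considered, and all 13 had a ratio above 1 in both libraries with a median log2 ratio of 0.80 and 0.76, against -0.02 and -0.01 over all genes. The 6 named were higher and 0 lower, beside 1.77% and 1.58% of all genes considered, and the same 6 were past 2-fold with the Epcam limit, where the medians were 0.74 and 0.57. All 6 were under 50 CPM in the Tcf21/Inmt cells and passed the level limit through the members alone, so these counts and medians are partly set by that limit. Zic1, a zinc-finger factor of dorsal neural and meningeal development, was at 89.8 and 94.5 CPM against 14.8 and 8.998 CPM, 6.05-fold (4.47 to 8.32) and 10.5-fold (5.82 to 20.8) higher. It was found in 22.9% and 21.8% of thinned members, 4.74% and 1.90% of the Tcf21/Inmt cells and 0.0480% and 0.0197% of the Epcam cells. Zic2, a paralogue of it, was at 55.4 and 53.6 CPM against 4.05 and 2.25 CPM.

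The gap junction genes Gjb2 and Gjb6, which encode connexins, were past 2-fold as well. Gjb2 was at 87.5 and 87.1 CPM against 14.6 and 14.997 CPM, and Gjb6 at 84.7 and 115 CPM against 9.98 and 21.0 CPM. Dkk2, a secreted WNT modulator, was at 60.4 and 118 CPM against 7.01 and 13.5 CPM and was found in 12.1% and 23.1% of thinned members. Crabp2, a carrier of retinoic acid, was at 79.7 and 59.6 CPM against 23.2 and 19.5 CPM, and at 5.69 and 3.77 CPM in the comparison cells with the Epcam limit. Crabp2 was also found in 31.8% and 32.1% of thinned Epcam cells, more often than in members at 13.1% and 8.97%. Slc4a10, a bicarbonate transporter of the same list, was under the 50 CPM limit, at 49.5 and 44.9 CPM in members and 0 in the Tcf21/Inmt cells.

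Other listed meningeal genes were abundant in both kinds of cell. Foxd1, a forkhead factor, was at 710 and 687 CPM in members and 464 and 523 CPM in the Tcf21/Inmt cells. Foxc1, a forkhead factor needed for the meninges, was at 287 and 347 CPM against 163 and 203 CPM. Cldn11, a tight junction claudin, was at 699 and 825 CPM against 488 and 605 CPM and was found in 74.3% and 84.0% of thinned members. None of these 3 was past 2-fold.

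Of the adventitial fibroblast markers, Ackr3 and Anxa3 were past 2-fold. Of 20 listed genes 8 were considered outside the rule, and 2 were past 2-fold higher and 0 lower. Over all genes, 1.77% were higher and 1.58% lower. Ackr3 and Anxa3 were both under 50 CPM in the Tcf21/Inmt cells and passed the level limit through the members alone. Ackr3, a chemokine scavenging receptor, was at 69.6 and 87.1 CPM against 29.7 and 39.7 CPM, and was not past 2-fold with the Epcam limit. Anxa3, an annexin, was at 131 and 92.4 CPM against 14.0 and 15.7 CPM and stayed past it. Pdgfra, the receptor that marks most fibroblasts, was at 368 and 437 CPM against 330 and 442 CPM, and Igfbp6, a binding protein of IGF2, at 528 and 432 CPM against 307 and 345 CPM.

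Most genes of the structural matrix were not past 2-fold. The same held over all genes, of which 1.77% were higher and 1.58% lower. Of 3 fibrillar collagen genes considered outside the rule, 11 genes of collagen processing, 11 of basement membrane and 4 small proteoglycans, 0 were past 2-fold in either direction. The basement membrane genes still had 10 of 11 ratios above 1 in both libraries, with medians of 0.65 and 0.63, or 0.41 and 0.46 with the Epcam limit. Of 10 other collagen genes considered, Col18a1 and Col8a1 were past 2-fold higher and 0 lower. Of 14 elastic fibre and microfibril genes outside the rule, 1 was higher, Fbln2, and 0 were lower. These genes stayed past 2-fold with the Epcam limit. Col18a1, the collagen that yields endostatin, was at 541 and 608 CPM against 224 and 252 CPM. Col8a1, a short-chain collagen, was at 67.3 and 55.6 CPM against 14.0 and 12.7 CPM and passed the level limit through the members alone. Fbln2, a fibulin of elastic fibres and basement membranes, was at 116 and 129 CPM against 50.2 and 55.5 CPM. Of 13 matricellular and adhesive genes, Spp1, Nov, Fn1 and Itih2 were higher and Cyr61 lower, beside 1.77% and 1.58% of all genes. Spp1, Nov and Itih2 passed the level limit through the members alone. Fn1, which encodes fibronectin, was at 512 and 437 CPM against 176 and 193 CPM, but with the Epcam limit its log2 ratios were 1.24 and 0.99. Serpinf1, a secreted anti-angiogenic serpin, was at 286 and 370 CPM against 138 and 178 CPM and was likewise not past 2-fold with that limit.

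Among 38 mesenchymal transcription factors considered, 4 were higher and 1 lower, beside 1.77% and 1.58% of all genes. Their median log2 ratios were 0.04 and 0.00. The higher ones were Zic1, Zic2, Prrx2 and Osr1. All 4 were under 50 CPM in the Tcf21/Inmt cells and passed the level limit through the members alone. Their count is thus partly set by that limit. Prrx2, a paired-related homeobox factor, was at 51.3 and 69.7 CPM against 16.7 and 11.2 CPM, and Osr1, an odd-skipped factor of connective tissue, at 61.4 and 54.9 CPM against 12.7 and 15.7 CPM. Twist1, a helix-loop-helix factor of cranial mesenchyme, was at 240 and 268 CPM against 144 and 157 CPM and was not past 2-fold. With the Epcam limit Snai2 took the place of Msx1 as the lower factor, at 28.4 and 20.1 CPM against 72.1 and 53.7 CPM.

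Few genes of secreted signals and their pathways were past 2-fold in either direction. Bmp7, a ligand of the BMP pathway, was at 90.7 and 81.7 CPM against 12.9 and 17.996 CPM, whereas Bmp2, a related ligand, was lower, at 22.0 and 13.4 CPM against 61.2 and 51.0 CPM. Bmp7 and Bmp2 were the only genes past 2-fold among 10 considered of TGF-beta and BMP signalling, and the Epcam limit added Id1 to the higher ones. Over all genes, 1.77% were higher and 1.58% lower. Bmp7 passed the level limit through the members alone and Bmp2 through the Tcf21/Inmt cells alone. Rspo3, which strengthens WNT signals, was at 66.4 and 87.8 CPM in members and 164 and 185 CPM in the comparison cells with the Epcam limit. Il33, an alarmin cytokine, was at 201 and 183 CPM against 66.6 and 69.0 CPM. Among 9 genes of FGF, PDGF, VEGF and HGF signalling, 8 of axon guidance and 6 of Hedgehog and Notch response, 0 were past 2-fold. Beside 1.77% and 1.58% of all genes, a count of 0 in lists this short does not set these pathways apart.

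In lipid handling, Apoe and Plpp3 were higher and Lpl lower among 8 genes, beside 1.77% and 1.58% of all genes. Apoe, a lipid carrier protein, was at 488 and 547 CPM against 212 and 227 CPM, and Plpp3, a phospholipid phosphatase, at 778 and 1080 CPM against 358 and 487 CPM. Neither was past 2-fold with the Epcam limit. Lpl, the lipase that frees fatty acids from lipoproteins, was at 32.1 and 30.8 CPM against 72.5 and 87.7 CPM. Lpl passed the level limit through the Tcf21/Inmt cells alone. Lbp, a secreted protein that binds bacterial lipopolysaccharide, was at 141 and 212 CPM against 13.5 and 20.2 CPM, 10.5-fold higher in each library, and Anxa1, an annexin that limits inflammation, at 229 and 141 CPM against 20.8 and 19.5 CPM.

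The genes that were low in members belonged to the other side of the collagen cells. Cxcl5, a neutrophil-attracting chemokine, gave 10 and 7 UMIs in members (4.58 and 4.69 CPM), against 91.1 and 99.8 CPM in the Tcf21/Inmt cells with at most 1 Epcam UMI, 19.9-fold (10.6 to 42.0) and 21.3-fold (9.98 to 54.2) lower. Meis2, a homeobox factor, was at 11.9 and 15.4 CPM against 149 and 132 CPM, 12.5-fold (8.402 to 19.4) and 8.56-fold (5.48 to 13.9) lower. Meis2 was found in 1.87% and 2.56% of thinned members, 31.2% and 22.8% of all Tcf21/Inmt cells and 7.32% and 8.04% of the Epcam cells. Spink8, a serine protease inhibitor, was at 14.7 and 7.37 CPM against 131 and 115 CPM. Penk, which encodes the enkephalin precursor, was at 17.9 and 28.8 CPM against 122 and 144 CPM, and Aqp1, a water channel, at 19.2 and 8.71 CPM against 107 and 52.7 CPM. Gucy1a1, a subunit of the nitric oxide receptor and 1 of the listed mural cell markers, was at 41.2 and 42.9 CPM against 259 and 165 CPM. Enpep, the aminopeptidase that trims angiotensin, was at 57.2 and 77.7 CPM against 299 and 233 CPM. Ly6h, at 81.5 and 65.0 CPM against 411 and 248 CPM, was far higher again in the Epcam cells, at 1041 and 935 CPM.

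Some genes that respond to tissue dissociation were lower in the members. Of 16 such genes, 0 were past 2-fold higher, 6 were lower (Atf3, Ier2, Nr4a1, Btg2, Socs3 and Cyr61) and 10 were neither, beside 1.58% of all genes lower, with 15 ratios below 1 in both libraries and medians of -0.84 and -1.02. Atf3 and Nr4a1, and in males Cyr61, were under 50 CPM in members and passed the level limit through the Tcf21/Inmt cells alone. The count of lower genes is thus partly set by that limit. With the Epcam limit 15 were considered, 13 were below 1 and 2, Socs3 and Cyr61, were past 2-fold lower, beside 1.06% of all genes, with medians of -0.85 and -0.91. Fos, the best known immediate early gene, was at 1919 and 2029 CPM in members and 3527 and 4323 CPM in the Tcf21/Inmt cells. The list summed to 7437 and 7649 CPM against 13025 and 15283 CPM. The part of this response in the other differences was not tested.

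Because the members lay on a range, collagen cells with at most 1 Epcam UMI and at least 5 UMIs of Mfap5, Apod, Tgfbi, Tcf21 and Inmt together were also split into 5 bins by the share that Mfap5, Apod and Tgfbi made of these UMIs. Members were in the upper 3 bins, 26, 83 and 98 of the 71, 83 and 98 male cells and 13, 60 and 81 of the 45, 60 and 81 female cells. Fxyd5 was at 0, 0, 0, 46.8 and 317 CPM from the lowest to the highest male bin, and reached 38.0 and 232 CPM in the upper 2 female bins. Cxcl5 ran the other way, at 118, 88.2, 18.3, 12.6 and 0 CPM in males and 202, 49.5, 42.0, 11.99 and 0 CPM in females. Itih5 had its highest level in the fourth bin of both libraries, at 2203 and 1980 CPM, and fell to 1195 and 1403 CPM in the highest. Dcn stood at 4306 CPM in the lowest and 6076 CPM in the highest male bin, and at 5324 and 6597 CPM in the female ones, and Fos at 3840 and 1365 CPM and at 5472 and 1485 CPM.

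**Figure D3:**
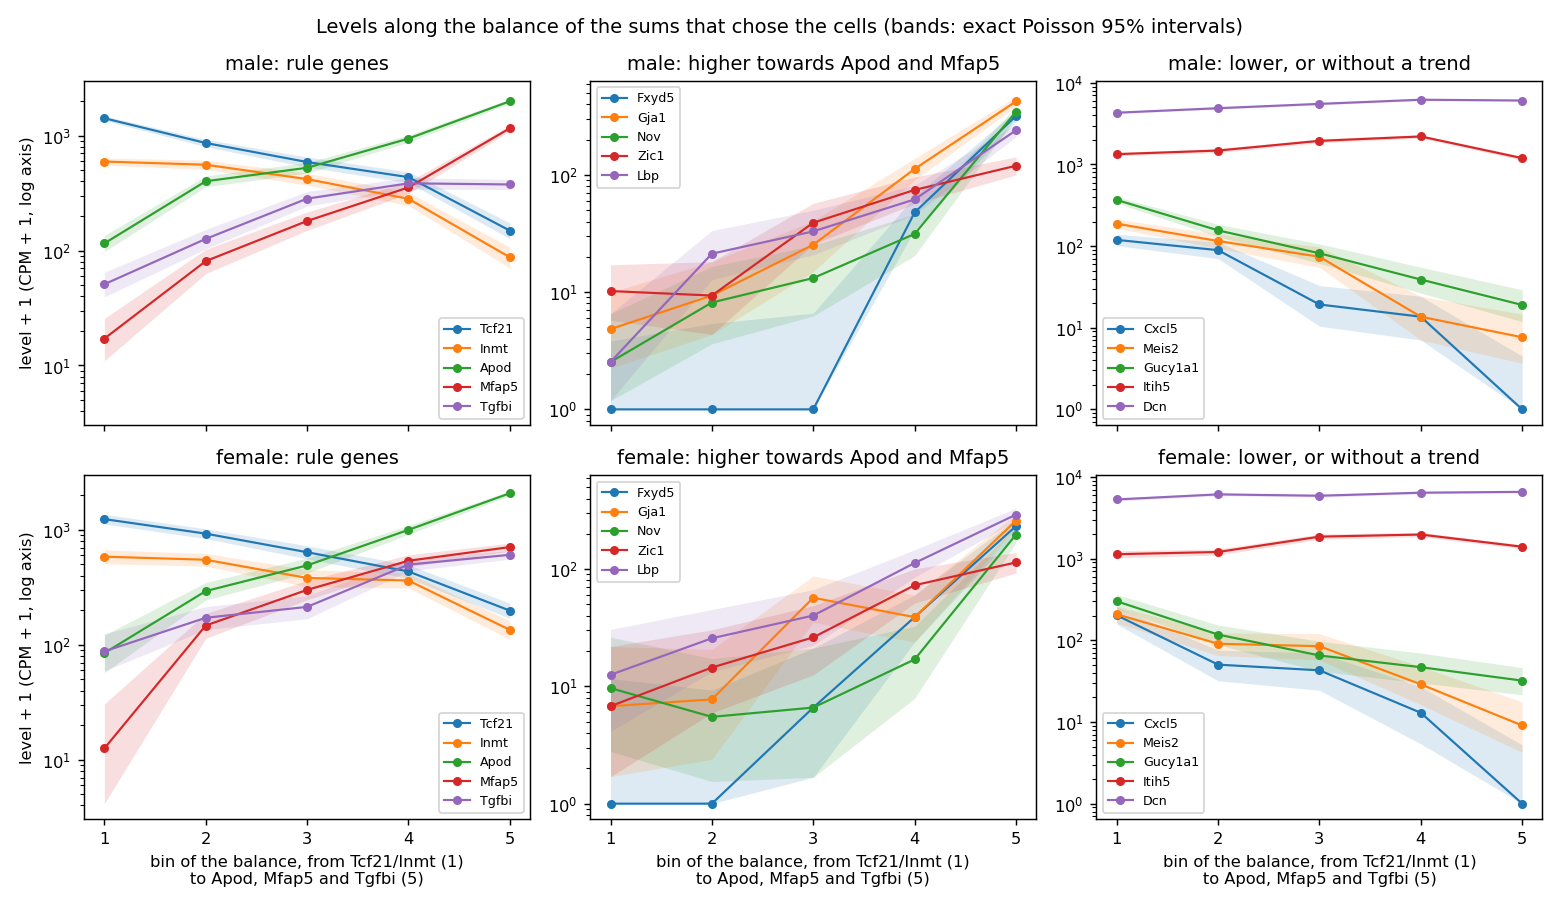
Level (CPM plus 1, log axis) in 5 bins of collagen cells ordered by the share of Mfap5, Apod and Tgfbi among the UMIs of the 5 rule genes, with exact 95% Poisson intervals as bands, male and female libraries. Fxyd5 and Nov were highest in the last bin, Cxcl5 and Meis2 in the first, and Itih5 in the fourth.

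The members themselves fell along a second range set by Mfap5. Among thinned members, 128 of 214 male and 77 of 156 female cells had no Mfap5 UMI, 29 and 41 had 1 or 2, and 57 and 38 had 3 or more and are called Mfap5-rich. These strata were chosen after values were seen, their median depths were 8095, 9342 and 11020 UMIs in males and 7429, 10000 and 11148 in females, and no test was made. Between Mfap5-rich members and those with none, 60 of 3197 genes considered were higher in both libraries (1.88%), Mfap5 included, and 75 lower (2.35%). Of the 60 higher genes, 20 (33.3%) were also among the 50 higher genes of members over Tcf21/Inmt cells with the Epcam limit (40.0% of those). Of the 75 lower genes, 1 was among the 34 lower ones. Over all genes considered with the Epcam limit, 1.57% were higher and 1.06% lower. The Mfap5-rich members were part of both contrasts, and Mfap5, a rule gene, was counted in both, so this overlap is partly built in.

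Fxyd5, Gja1, Nov, Spp1 and Cdh5 were higher in Mfap5-rich members. They had been picked for their ratios in these same members, so their levels and joint detection here are a description only. Spp1 and Cdh5, and in females Fxyd5 and Nov, were under 50 CPM without Mfap5 and passed the level limit through the Mfap5-rich cells alone. Fxyd5 stood at 306 CPM in male and 303 CPM in female Mfap5-rich members, against 76.5 and 35.3 CPM in members without Mfap5, 4.004-fold and 8.58-fold. Gja1 stood at 71.2, 285 and 505 CPM over the 3 male strata and at 52.9, 257 and 293 CPM over the female ones. Cdh5 stood at 105 and 116 CPM against 22.2 and 24.1 CPM. At least 2 of Fxyd5, Gja1, Nov, Spp1 and Cdh5 were found in 47.4% of 57 male (34.0 to 61.0) and 36.8% of 38 female (21.8 to 54.0) Mfap5-rich members, against 6.25% of 128 (2.74 to 11.9) and 1.30% of 77 (0.0329 to 7.02) without Mfap5. S100a10, an annexin partner, stood at 362, 1145 and 1446 CPM in males and 433, 859 and 1331 CPM in females. Igfbp6 stood at 261, 493 and 955 CPM and at 244, 378 and 758 CPM. Cdkn1c, a cell cycle inhibitor, stood at 1915 and 2020 CPM against 785 and 868 CPM, and Lypd2 at 114 and 57.8 CPM against 2.67 and 3.21 CPM. Of 10 adventitial markers considered, Cd34, Ackr3, Sema3c, Igfbp6 and Anxa3 were higher and Pdgfra lower, beside 1.88% and 2.35% of all genes. Cd34, Ackr3, Sema3c and Anxa3 were under 50 CPM without Mfap5 and passed the level limit through the Mfap5-rich cells alone. The adventitial count is thus partly set by that limit. Male Pomc, a hormone transcript of the gland, was also higher in Mfap5-rich members, at 545 against 167 CPM, and in females it was at 39.3 and 35.3 CPM.

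Itih5 and Lum were higher in members without Mfap5. Itih5 stood at 2604, 1083 and 680 CPM from none to rich in males and at 2528, 1308 and 672 CPM in females, 3.83-fold (3.48 to 4.22) and 3.76-fold (3.31 to 4.27) lower in Mfap5-rich cells. Lum stood at 382, 250 and 145 CPM and at 411, 351 and 109 CPM. Pdgfra stood at 545, 208 and 172 CPM and at 630, 346 and 250 CPM. Mgp, a matrix inhibitor of calcification, stood at 4512 CPM in male and 5328 CPM in female members without Mfap5 and at 1886 and 2410 CPM in Mfap5-rich ones. Across thinned members, the correlation of log UMIs of Mfap5 with Itih5 was -0.51 in males and -0.49 in females, and with S100a10 0.61 and 0.51. The levels of the 6 markers of the label therefore did not rise together. Itih5 was still found in 70.2% of male and 71.1% of female thinned Mfap5-rich members, and Lum in 21.1% and 26.3%.

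Some mural and dissociation genes were higher in the cells lacking Mfap5. Rgs5, Pdgfrb, Kcnj8, Ndufa4l2 and Gucy1a1 were lower in Mfap5-rich cells among 6 mural markers considered of 19 listed, beside 2.35% of all genes, and a gene could pass the level limit through the cells without Mfap5 alone, as Kcnj8 did at 85.4 and 67.4 CPM against 1.38 and 0 CPM. Pdgfrb was at 261 and 282 CPM without Mfap5 and 56.6 and 60.1 CPM in Mfap5-rich cells. For Rgs5, the pericyte marker, 1 cell held 53.8% of the male and 1 cell 68.3% of the female UMIs of all members. Emcn was at 312 and 338 CPM against 84.2 and 73.9 CPM. Of 13 dissociation genes 7 were lower, among them Fos at 2734 and 2948 CPM against 847 and 1202 CPM. The part of these in the split was not tested.

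Several genes of the members were not past 2-fold between the Mfap5 strata. Apod stood at 1156, 1339 and 1782 CPM over the male strata and at 1748, 1679 and 1303 CPM over the female ones, opposite directions in the 2 libraries, and its correlation with Mfap5 was 0.03 and -0.19. Zic1, Zic2 and Gjb6 were not past 2-fold between the strata. Thinned Zic1 was found in 17.97% of male and 23.4% of female members without Mfap5 and in 31.6% and 18.4% of Mfap5-rich ones. Foxd1 was at 648 and 680 CPM without Mfap5 and 806 and 730 CPM in Mfap5-rich members. Of 14 meningeal markers considered, Crabp2, Fxyd5 and Slc4a10 were past 2-fold higher in Mfap5-rich members and 0 lower. Over all genes these shares were 1.88% and 2.35%. Of the 14, 12 had ratios above 1 in both libraries. The median log2 ratio of the 14 was 0.69 and 0.81, against -0.05 and 0.00 over all genes. Crabp2 and Slc4a10, and in females Fxyd5, were under 50 CPM without Mfap5 and passed the level limit through the Mfap5-rich cells alone. These counts and medians are thus partly set by that limit. Members without Mfap5 still differed from the Tcf21/Inmt cells with the Epcam limit, with 31 of 3184 genes higher (0.974%) and 27 lower (0.848%).

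**Figure D4:**
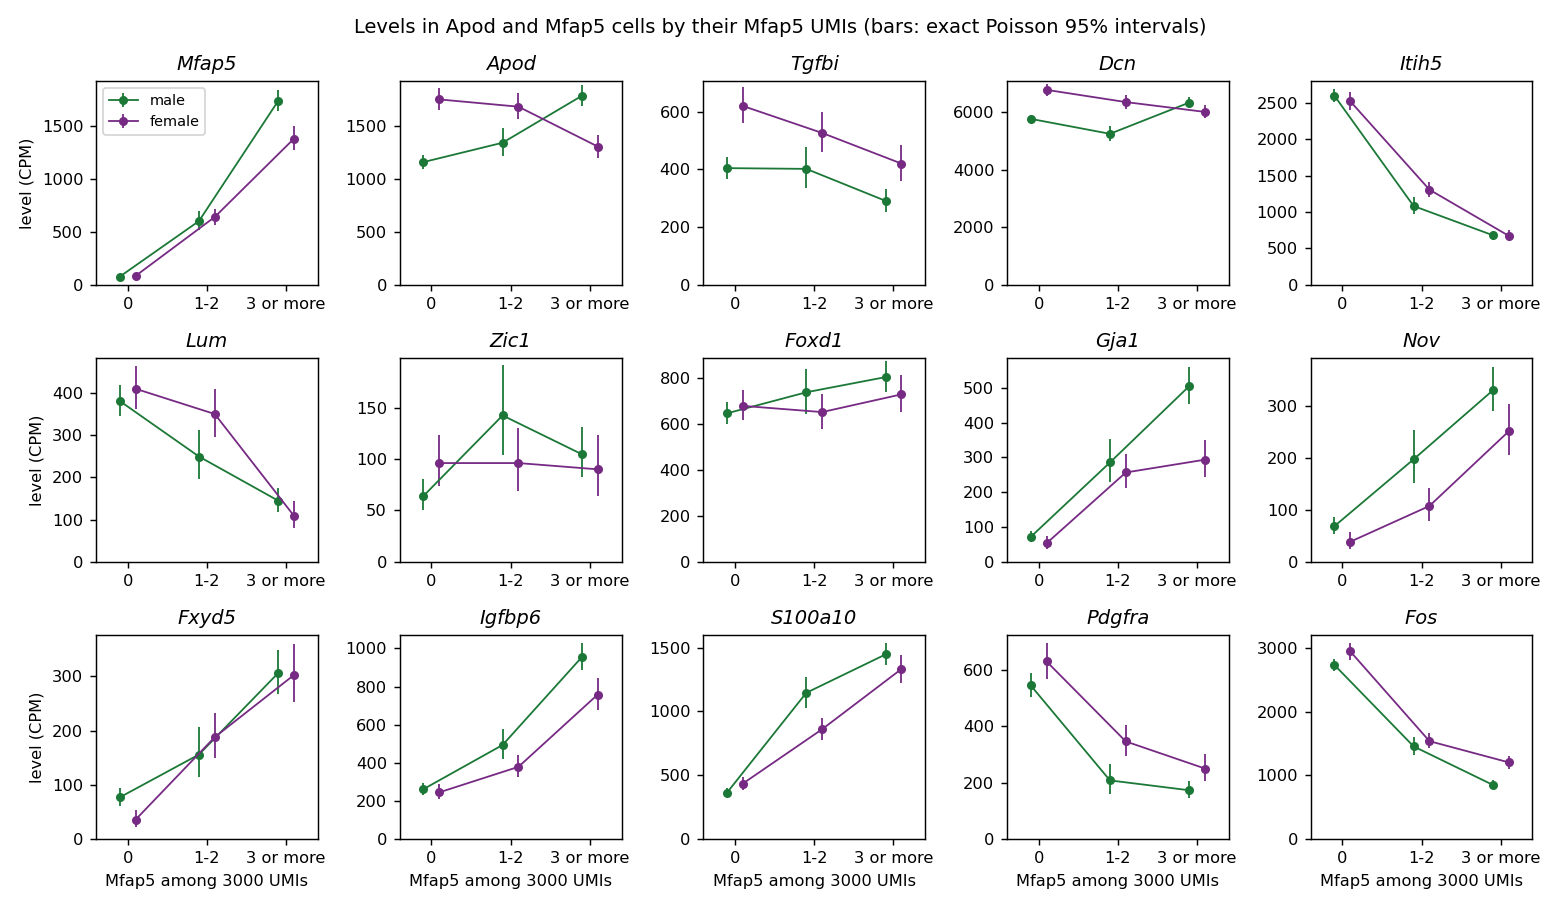
Level (CPM) of 15 genes in members with no, 1 or 2, and 3 or more Mfap5 UMIs among 3000, male and female libraries, with exact 95% Poisson intervals. Fxyd5, Gja1 and S100a10 were higher and Itih5, Lum and Pdgfra lower with more Mfap5 in both libraries, and Apod went opposite ways in the 2.

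Sox9, whose locus makes the GFP of the sort, was lower in the members than in the Epcam cells. The eGFP transcript was close in members and Epcam cells, and lower in the Tcf21/Inmt cells. Sox9 stood at 47.2 CPM (38.5 to 57.2) and 54.3 CPM (43.1 to 67.4), against 41.8 and 46.5 CPM in the Tcf21/Inmt cells and 64.2 and 82.9 CPM in the Epcam cells. It was found in 10.7% of male (6.94 to 15.7) and 14.7% of female (9.58 to 21.3) thinned members and in 15.4% and 20.4% of thinned Epcam cells. The eGFP transcript gave 25 and 19 UMIs in members, 11.4 and 12.7 CPM. It stood at 14.3 and 11.4 CPM in the Epcam cells and at 6.74 and 5.999 CPM in the Tcf21/Inmt cells. Pitx1, the pituitary factor, gave 2.29 CPM in male members and 0 in female ones, which allows up to 2.01 CPM, against 262 and 226 CPM in the Epcam cells. Thinned Pitx1 was found in 0.467% of male members and 0 of 156 female ones, and in 49.8% and 45.9% of the Epcam cells.

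Mural markers summed to 635 and 484 CPM in members, 785 and 532 CPM in the Tcf21/Inmt cells and 43.3 and 46.6 CPM in the Epcam cells, with 1 male and 2 female of the 19 at 0 in members. All 14 macrophage markers were under 5 CPM in both libraries, 7 and 8 of them at 0, and Ptprc and Sox10 gave 0 UMIs. Pituitary stem cell markers summed to 856 and 975 CPM in members and 7184 and 9314 CPM in Epcam cells. Endocrine markers summed to 547 and 113 CPM in members and 20784 and 8871 CPM in Epcam cells, and Pomc made up most of the male sum. Proliferation genes summed to 746 and 382 CPM.

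Between the sexes the members differed in few genes. Of 3305 genes considered, 19 were past 2-fold higher in the male members (0.575%) and 2 in the female members (0.0605%). Xist, the X-inactivation transcript, stood at 0.458 CPM in male and 596 CPM in female members and the Y-linked Ddx3y at 81.5 and 0 CPM, as the sex labels have it. H19, an imprinted growth-related RNA, was at 197 CPM in male and 449 CPM in female members, 2.27-fold (2.01 to 2.57), and at 184 and 226 CPM in the Tcf21/Inmt cells. Pomc was at 449 and 32.8 CPM, beside 14266 and 5214 CPM in the Epcam cells. Of the 19 genes higher in male members, 11 were also past 2-fold in the Tcf21/Inmt cells and 8 in the Epcam cells. No share over all genes of those cells is given beside these counts, so they describe the 19 genes only. For some of the 19, 1 cell weighed heavily. The highest cell of each gene held 91.2% of the male UMIs of Ccl2, 60.4% of those of the histone gene Hist1h1b and 44.7% of those of the histone gene Hist1h2ap, and both histone genes were also higher in the male Tcf21/Inmt cells, at 249 against 84.0 CPM and 336 against 84.0 CPM. Spp1 was at 132 and 61.6 CPM, 2.14-fold (1.69 to 2.74), and Dkk2 went the other way at 60.4 and 118 CPM without passing 2-fold. Sex cannot be told apart from library here.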

How the data were processed

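Cells of 3 pooled Sox9iresGFP/+ pituitaries per sex at postnatal day 3 were sorted for GFP and profiled as 1 library per sex. The authors made the deposited UMI count matrices with Cell Ranger 3.0.2 against mm10 with the eGFP sequence added, and the barcodes are those it called as cells. The matrices hold 31055 features, 71 of which share a symbol, and 103324792 male and 62682018 female UMIs in barcodes that passed.

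Counts were read with Python 3.11.15, numpy 2.4.6, scipy 1.17.1 and pandas 2.3.3, and summed per library and kind of cell. CPM divides by all UMIs of those cells. Shares were taken after drawing 3000 UMIs per cell (seed 1). The scripts were tested on simulated data. Coordinates come from GENCODE vM21. No doublets were removed; Scrublet (scanpy 1.11.5), run on all barcodes at 0.8% per 1000, marked 894 male and 269 female barcodes, and results were repeated without them. The members, gene lists and tests were chosen with earlier results of these data known, and the lists give no independent support. Named genes are the rule genes and markers, the 15 with the largest fold each way in both libraries, the 5 each way between sexes, list genes past 2-fold or, where fewer than 2 were, the 2 most abundant, and Sox9, eGFP and Pitx1. The text describes a selection of these, and adds some genes chosen after their values were seen: Pecam1, Kdr, Slc4a10, Twist1, Enpep, Lypd2, S100a10, Cdkn1c, Emcn and Igfbp6, and the Mfap5 strata. Alternatives were other limits on genes, mitochondrial share, collagen, Epcam and the balance of rule genes, other added CPM and level limits, per-cell means, and a deeper draw.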

Additional observations from a re-analysis of the deposited data

How the results depend on the processing

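No paired analysis was possible because the labels carry no replicate numbers and each sex is 1 library. A stricter balance, with at least 4 times as many UMIs on the leading side and at most 1 Epcam UMI in both kinds of cell, left 107 male and 81 female members (1.34% and 1.45%), and gave 100 higher and 85 lower genes against the Tcf21/Inmt cells and 4 genes higher in females. With the study's own gene and mitochondrial limits the male share was 2.24%, and without Tgfbi in the rule it was 2.17%, with 4 genes higher in females. Lower genes numbered 31 with the rule applied to thinned cells and 24 with means of per-cell CPM. A level limit of 10 CPM gave 115 higher, 137 lower, 73 male-higher and 17 female-higher genes. A lower limit brings more genes into consideration, so these counts cannot be set against those at 50 CPM. The genes considered can differ between the other settings as well, and their counts are not shares. At 5000 UMIs a cell, Apod was found in 80.1% of male members, Mfap5 in 48.5% of male and 60.5% of female members and Tgfbi in 80.6% and 87.1%, so these shares depend on depth.

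The direction was lost only for epithelial genes, where barcodes with Epcam left the comparison. With at most 1 Epcam UMI in both, the log2 ratio was 0.26 for male Msx1, 0.19 for male Six3, 0.14 and 0.34 for male and female Sox2, 0.052 for male Wfdc2, 0.22 and 0.18 for Spint2, 0.10 and 0.33 for Cldn3, 0.36 for male Krt18 and 0.26 for male Mia. With no Epcam UMI it was 0.36, 0.20 and 0.35 for female Sox2, Spint2 and Cldn3, and 0.21 and 0.19 for male Krt18 and Mia. Against all other collagen cells with at most 1 Epcam UMI it was 0.34, 0.21 and 0.35 for female Sox2, Spint2 and Cldn3. With the balance of 4 it was 0.28 and 0.55 for male and female Msx1, 0.27 for male Six6, 0.038 for male Six3, 0.18 and 0.30 for Sox2, 0.063 for male Wfdc2, 0.31 and 0.34 for Spint2, 0.42 and 0.34 for Cldn3, 0.20 for male Krt18 and 0.28 for male Mia. Of 1408 ratios of 44 genes over 16 settings, 1185 moved by less than their counting interval, 191 by more in the same direction, and these 32 turned.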

Other observations

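Several abundant genes of the Apod and Mfap5 cells fell outside the groups above. Vim, the intermediate filament of mesenchymal cells, stood at 871 CPM in male and 760 CPM in female members and at 235 and 250 CPM in the Tcf21/Inmt cells, 3.70-fold (3.41 to 4.01) and 3.04-fold (2.69 to 3.44) higher. Dpysl3, a cytoskeletal protein of growing processes, stood at 139 and 121 CPM against 23.7 and 24.0 CPM. Nppc, the precursor of C-type natriuretic peptide, stood at 69.6 and 62.3 CPM against 18.6 and 6.75 CPM, and Cxadr, a junctional adhesion protein, at 108 and 73.0 CPM against 14.3 and 8.998 CPM. The Epcam cells carried Nppc at 74.1 and 95.5 CPM and Cxadr at 44.2 and 54.1 CPM. The comparison cells with at most 1 Epcam UMI carried less of both, at 8.73 and 2.83 CPM for Nppc and 6.45 and 4.71 CPM for Cxadr.

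Ptn, a secreted heparin-binding growth factor, was among the abundant transcripts of both kinds of collagen cell. It stood at 4155 and 3131 CPM in members and 2035 and 1906 CPM in the Tcf21/Inmt cells and was not past 2-fold in both libraries. Ncam1, a neural and mesenchymal adhesion molecule, was lower in members, at 18.3 and 34.2 CPM against 85.2 and 119 CPM. Lbh, a transcription cofactor of limb bud and heart, was lower as well, at 44.0 and 44.2 CPM against 177 and 146 CPM.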
